A study of Mus musculus with 9 samples.

Results

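The genes described here are the liver X receptors and 8 lipid genes they are known to regulate, read on microarrays of mouse microglia that had been given lipopolysaccharide (LPS), interleukin-4 (IL-4) or phosphate-buffered saline (PBS). The members were taken by gene symbol: the receptors Nr1h3 and Nr1h2, the lipid exporters and carrier Abca1, Abcg1 and Pltp, the ubiquitin ligase Mylip, and the lipid synthesis genes Srebf1, Fasn, Scd2 and Acsl3. Of these 10 genes, 9 had a row named by the platform annotation among the 21212 rows of the value table. Nr1h2 is not named there and was read from the row whose identifier, 22260, is its RefSeq gene ID, so its values are given separately and are left out of all counts. The identifier equalled the gene ID in 18743 of the 18786 rows that do carry 1 symbol and differed in 43, which is the limit on that match.

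Primary microglia, the resident macrophages of the brain, came from newborn (P0 to P1) wild-type CD-1 pups, were enriched on a Percoll density gradient and were kept with M-CSF and GM-CSF, at 10 ng/ml each, for 5 to 7 days. After a night without serum they received LPS at 100 ng/ml, which drives the M1 (inflammatory) state, IL-4 at 20 ng/ml, which drives the M2a state, or the same volume of PBS for 4 h. There were 3 arrays of each condition, 9 in all, and the labels describe the brains as pooled from a litter. No label says that the 3 arrays of a condition came from separate cultures, so the p-values rest on the variation among the arrays at hand and may reflect technical repeats.

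Liver X receptors are nuclear receptors that sense oxidised derivatives of cholesterol (oxysterols). Each pairs with a retinoid X receptor (RXR) on DNA and, when a ligand is bound, raises transcription of genes that export cholesterol and make fatty acids. In macrophages and microglia they are known both for clearing cholesterol taken up from dead cells and myelin and for damping inflammatory genes.

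The classical site for the receptor pair is a direct repeat of the half-site AGGTCA with 4 bases between its copies. Promoter windows of 250 bases before to 50 bases after a transcription start, from RefSeq on GRCm38.p6, were matched for 8 of the 10 genes (11 windows). Abcg1 (chr17:31057694-31117984) and Scd2 (chr19:44293676-44306864) had no entry. The strict repeat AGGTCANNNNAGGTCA, searched on both strands, was in 5 of 32851 windows (0.0152%) and in none of the 11. A variant of it, GGTTACTNNNGGTCA, also fixes 12 letters and does not match the strict repeat. With the base before it, the variant reads as 2 imperfect half-sites 4 bases apart. It was in 4 of the 11, those of Abca1, Srebf1, Fasn and Acsl3, and in 6 windows of 5 genes in all (0.0183% of windows). In those 4 windows the best match to the strict repeat was reached at this variant: 9 of 12 letters in Abca1, Srebf1 and Fasn and 10 in Acsl3. The members' other windows reached 7 or 8. At least 9 letters matched in 21.9% of all windows and at least 10 in 3.02%. The letters of the variant were spelled out after the members' windows had been read, so its presence in them is a description. The 4 stretches are shown, with the element in capitals, so that the shared letters can be seen; nothing about the response to LPS is read from them. Each is read on the strand opposite to the gene, with 7 bases on either side.
Abca1, chr4:53159941-53159969, + strand: gcgccggGGTTACTACCGGTCAaacgctg
Srebf1, chr11:60210632-60210660, + strand: gcgctggGGTTACTGGCGGTCActgtcgt
Fasn, chr11:120824751-120824779, + strand: caggcggGGTTACTACCGGTCAtcgtggc
Acsl3, chr1:78657706-78657734, - strand: ggggcgaGGTTACTATGGGTCAttctgcg

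The 15 letters of the element were identical in Abca1 and Fasn. Counted from the annotated start, the element lay at -67 to -53 in Abca1, -112 to -98 in Acsl3, -182 to -168 in the window of Srebf1 that held it (1 of 3) and -225 to -211 in Fasn. The fifth gene with the element, LOC115486416, had no named row on the arrays. The 250 bases before the Acsl3 start, chr1:78657575-78657824 on the + strand, are given whole because the gene had the largest change of the 10 that was called in every setting run. Capitals mark the element (here as its reverse complement), the CCAAT box and the GC boxes (GGGCGG or its reverse complement).
Acsl3 promoter: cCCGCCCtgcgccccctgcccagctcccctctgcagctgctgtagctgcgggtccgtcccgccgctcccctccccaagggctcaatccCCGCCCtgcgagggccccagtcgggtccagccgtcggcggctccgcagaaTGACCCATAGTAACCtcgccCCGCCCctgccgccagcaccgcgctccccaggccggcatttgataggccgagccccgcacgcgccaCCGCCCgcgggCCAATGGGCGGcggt

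CCAAT stood in 37.4% of all windows and 6 of the 11, and GGGCGG in 35.7% of all windows and 6 of the 11. The E-box CACGTG was in 7.15% of windows and in that of Abca1 alone among the members. A match of letters is a description of a window and does not show that a factor was bound there.

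The stimuli were read from Il6, an inflammatory cytokine, at 12.23, 12.37 and 12.17 on the LPS arrays, 4.25, 4.34 and 4.42 on the IL-4 arrays and 3.55, 3.71 and 3.31 on the PBS arrays, and from Chil3, an IL-4 response gene, at 9.90, 9.62 and 9.49 on the IL-4 arrays and 4.45, 4.33 and 3.83 on the PBS arrays. All values are log2 intensities after robust multi-array averaging (RMA), so a difference of 1 is a doubling, and they are compared between arrays but not between genes. Of 13 microglia markers with a named row, Tyrobp, C1qb and C1qc were at 11.39 or above on every array, while Gpr34 was between 3.49 and 6.14. With LPS, 9 of these 13 markers were lower than with PBS (median log2 fold change -0.56), where 22.4% of all rows were lower. Replicate 3 of LPS and of PBS stood apart from the others: all 14 motile cilia markers were higher there than on replicates 1 and 2 of the condition, by a median of 1.54 with LPS and 1.74 with PBS, and so were 9 of 10 oligodendrocyte and 8 of 10 astrocyte markers with LPS, and 8 of 10 and 9 of 10 of them with PBS. Microglia markers were also higher there, 9 of 13 with LPS (median 0.16) and 12 of 13 with PBS (median 0.40). Over all rows the same median was -0.05 with LPS and -0.04 with PBS, and the share of all rows above both other replicates was not counted. The mean of the cilia markers was 7.09, 6.94 and 8.61 with LPS, 8.37, 8.60 and 8.53 with IL-4 and 7.26, 7.34 and 8.95 with PBS. On such whole-culture RNA, fewer cells of a type and less RNA per cell cannot be told apart. The part that the cell mixture played in the values below was not tested, and the members' results are given with and without these 2 arrays.

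**Figure D1:**
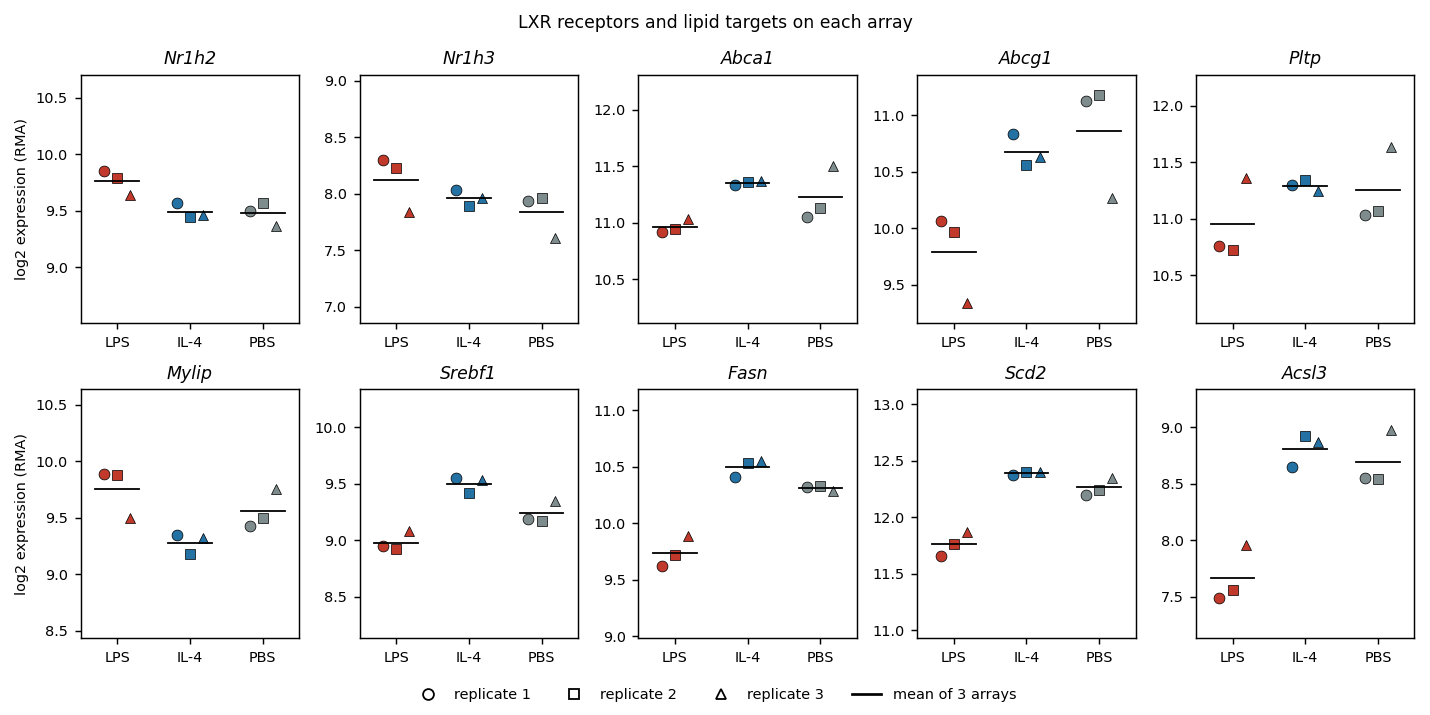
Log2 expression (y axis, RMA values) of each of the 10 genes on the 3 LPS, 3 IL-4 and 3 PBS arrays (x axis). Symbols mark the replicate number and lines the mean of 3 arrays, and each panel spans the same range of log2 units; in the panels of Abca1, Abcg1, Srebf1, Fasn, Scd2 and Acsl3 all 3 LPS points lie below the other 6.

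In the comparison of LPS with PBS, the question was what the inflammatory stimulus did to the pathway. The transporter Abcg1 and the lipid synthesis genes Acsl3, Fasn, Scd2 and Srebf1 fell, Abcg1 and Acsl3 to about 0.475 and 0.49 times the PBS level. No annotated member was called higher in this fit. The remaining annotated members, Nr1h3, Abca1, Pltp and Mylip, did not pass the test (limma, adjusted p under 0.05 over all 21212 rows). So 5 of the 9 were called lower, where 22.4% of all rows were called lower, 15.4% higher and 37.8% either way. The median log2 fold change of the 9 was -0.30, beside 0.01 for all rows.

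Nr1h3 encodes LXR alpha, the form whose own gene is a target of the receptor in human macrophages. It read 8.30, 8.23 and 7.84 with LPS, 8.03, 7.89 and 7.96 with IL-4, and 7.94, 7.96 and 7.61 with PBS. The 3 conditions overlapped, and replicate 3 was the lowest array of both LPS and PBS. The log2 fold change of LPS against PBS was 0.29 ± 0.13 (SE; 95% interval -0.02 to 0.60, adjusted p = 0.132), with same-numbered arrays differing by 0.36, 0.28 and 0.23. With the replicate number as a block, the same difference passed the test (adjusted p = 0.0468). That block ties same-numbered arrays of all 3 conditions, IL-4 included.

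Nr1h2 encodes LXR beta, the form found in most tissues. The row with its gene ID read 9.85, 9.79 and 9.64 with LPS, 9.57, 9.44 and 9.46 with IL-4, and 9.50, 9.57 and 9.36 with PBS. All 3 LPS arrays lay above the other 6, though by little. It was higher with LPS than with PBS by 0.28 ± 0.08 (95% interval 0.11 to 0.46, adjusted p = 0.0192), or 1.22-fold. The call was lost without LPS replicate 1 (adjusted p = 0.0684), LPS replicate 2 (0.0582) or PBS replicate 3 (0.0528), and in the methods' t-test (0.0966).

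Abcg1, which moves cholesterol out of the cell onto high-density lipoprotein particles, read 10.06, 9.97 and 9.34 with LPS, 10.83, 10.56 and 10.63 with IL-4, and 11.13, 11.18 and 10.27 with PBS. The LPS arrays were below all others, but replicate 3 of PBS, at 10.27, came close to the highest LPS array. Abcg1 fell by 1.07 on the log2 scale (SE 0.27, 95% interval -1.68 to -0.46, adjusted p = 0.0122), to 0.475 times the PBS level. Between same-numbered arrays the differences were -1.08, -1.21 and -0.93, closer together than the 3 PBS values, whose SD was 0.51.

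Abca1 loads cholesterol and phospholipid onto lipid-poor apolipoproteins. It read 10.92, 10.94 and 11.03 with LPS, 11.33, 11.36 and 11.37 with IL-4, and 11.05, 11.13 and 11.50 with PBS. The LPS and PBS arrays did not overlap, but the highest LPS array, at 11.03, was just under the lowest PBS array, at 11.05. The log2 fold change was -0.26 ± 0.11 (95% interval -0.51 to -0.02, adjusted p = 0.089), and -0.26 with an adjusted p of 0.0479 when the replicate number was a block.

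Pltp, a secreted protein that moves phospholipid between lipoproteins, read 10.76, 10.72 and 11.36 with LPS, 11.30, 11.34 and 11.24 with IL-4, and 11.03, 11.07 and 11.63 with PBS. Replicate 3 was the highest array of LPS and of PBS, and the conditions overlapped. The log2 fold change was -0.30 ± 0.20 (95% interval -0.76 to 0.16, adjusted p = 0.285), while same-numbered arrays differed by -0.27, -0.35 and -0.28.

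Mylip encodes a ubiquitin ligase, also called IDOL, that limits the uptake of cholesterol. It read 9.89, 9.88 and 9.50 with LPS, 9.35, 9.18 and 9.32 with IL-4, and 9.43, 9.50 and 9.75 with PBS. Here replicate 3 went opposite ways, lowest of the LPS arrays and highest of the PBS arrays. The log2 fold change was 0.19 ± 0.12 (95% interval -0.09 to 0.47, adjusted p = 0.257), and the same-numbered differences of 0.46, 0.37 and -0.25 did not share a sign.

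Srebf1 encodes the transcription factor SREBP1, which drives fatty acid synthesis genes. It read 8.95, 8.92 and 9.08 with LPS, 9.55, 9.42 and 9.53 with IL-4, and 9.19, 9.17 and 9.35 with PBS. The 3 conditions did not overlap, with IL-4 highest and LPS lowest. Srebf1 fell with LPS by 0.26 on the log2 scale (SE 0.07, 95% interval -0.42 to -0.10, adjusted p = 0.0195). The call was lost without LPS replicate 1 (adjusted p = 0.0625), LPS replicate 2 (0.0672) or PBS replicate 3 (0.0522), with array medians subtracted (-0.14, adjusted p = 0.0859) and in the methods' t-test (adjusted p = 0.0843).

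Fasn, the enzyme that builds palmitate, read 9.62, 9.72 and 9.89 with LPS, 10.41, 10.53 and 10.55 with IL-4, and 10.32, 10.33 and 10.29 with PBS. The PBS arrays lay close together (SD 0.02) and above every LPS array. Fasn fell by 0.57 (SE 0.07, 95% interval -0.74 to -0.40, adjusted p = 3.78e-04), to 0.675 times the PBS level.

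Scd2, a desaturase that puts a double bond into fatty acids and is the main brain form in mice, read 11.66, 11.76 and 11.87 with LPS, 12.37, 12.40 and 12.40 with IL-4, and 12.20, 12.24 and 12.35 with PBS. As with Srebf1, the 3 conditions were ordered LPS, PBS, IL-4 with no overlap. Scd2 fell with LPS by 0.50 (SE 0.07, 95% interval -0.65 to -0.35, adjusted p = 4.25e-04), and same-numbered arrays differed by -0.55, -0.48 and -0.48.

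Acsl3 joins long-chain fatty acids to coenzyme A and sits on lipid droplets. It read 7.49, 7.56 and 7.96 with LPS, 8.65, 8.92 and 8.87 with IL-4, and 8.55, 8.54 and 8.98 with PBS. The highest LPS array, at 7.96, was well below the lowest PBS array, at 8.54. Acsl3 fell by 1.03 (SE 0.16, 95% interval -1.39 to -0.67, adjusted p = 9.76e-04), to 0.49 times the PBS level, with same-numbered differences of -1.07, -0.99 and -1.03. The calls on Fasn, Scd2 and Acsl3 were kept in every setting run.

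All 3 LPS arrays read below the other 6 arrays in 6 of the 9 annotated members, against 22.8% of all rows, and above the other 6 in 0 of 9, against 17.2% of all rows. LPS and PBS did not overlap in 6 of the 9, against 45.7% of all rows.

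**Figure D2:**
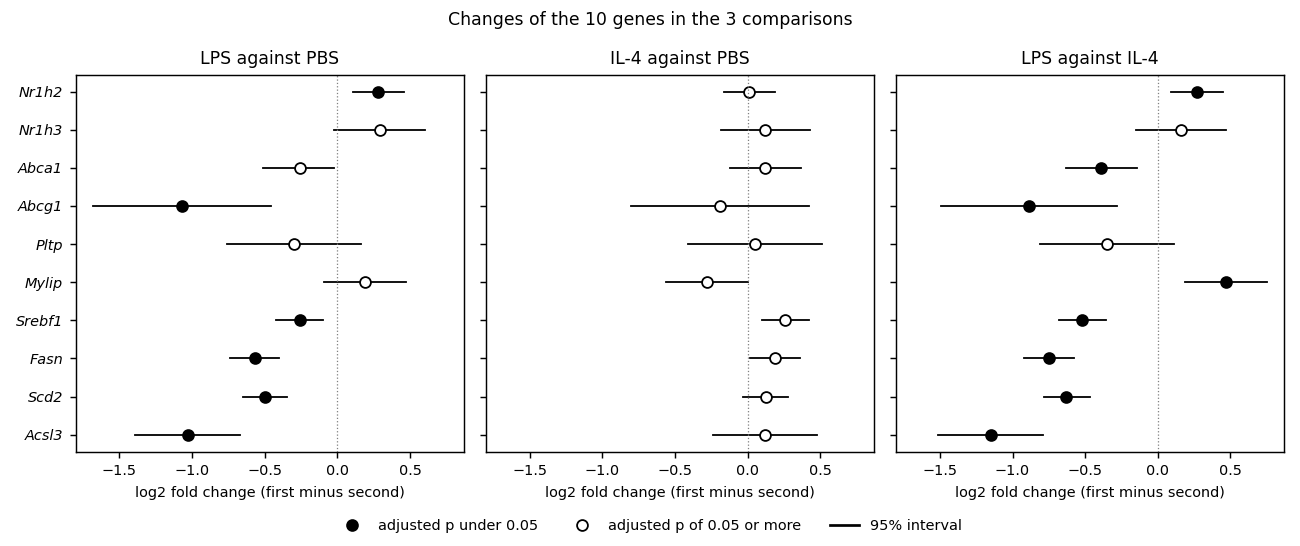
Log2 fold change (x axis, first condition minus second) of the 10 genes (y axis) in each comparison, with the 95% interval from the fit as a line and filled points for an adjusted p under 0.05. In the left panel the points of Abcg1 (-1.07), Acsl3 (-1.03), Fasn (-0.57), Scd2 (-0.50), Srebf1 (-0.26) and the Nr1h2 row (0.28) are filled, and in the middle panel none is.

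In the comparison of IL-4 with PBS, which asked what the alternative stimulus did, no member passed the test: 0 of 9, where 5.40% of all rows were called (3.35% higher and 2.05% lower). Before adjustment, 2 had a p under 0.05 in this limma fit, Srebf1 and Fasn; the methods' t-test after adjustment called 0 as well. IL-4 and PBS arrays did not overlap in 4 of 9, against 29.0% of all rows: Srebf1, Fasn and Scd2, with IL-4 higher, and Mylip, with IL-4 lower. This comparison and that of LPS with PBS share the PBS arrays.

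Srebf1 averaged 9.50 ± 0.07 with IL-4 and 9.24 ± 0.10 with PBS (SD, n = 3 each), a log2 fold change of 0.26 ± 0.07 (SE; 95% interval 0.10 to 0.42, adjusted p = 0.0725). It passed the test without LPS replicate 3 (adjusted p = 0.0466) or without PBS replicate 3 (0.32, adjusted p = 0.0285). Fasn averaged 10.50 ± 0.07 with IL-4 and 10.31 ± 0.02 with PBS, a difference of 0.19 (95% interval 0.02 to 0.36, adjusted p = 0.203). For Scd2 the difference was 0.13 (95% interval -0.03 to 0.28, adjusted p = 0.331). For Acsl3 it was 0.12, and the interval spans both signs (-0.24 to 0.48).

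Mylip averaged 9.28 ± 0.09 with IL-4 and 9.56 ± 0.17 with PBS, a log2 fold change of -0.28 (95% interval -0.56 to 0.00, adjusted p = 0.247). The transporters overlapped between IL-4 and PBS, with log2 fold changes of 0.12 for Abca1 (95% interval -0.12 to 0.37), -0.19 for Abcg1 (-0.80 to 0.42) and 0.05 for Pltp (-0.41 to 0.51). In these 3 genes the IL-4 arrays lay close together, with SDs of 0.02, 0.14 and 0.05, while the SDs of the PBS arrays were 0.24, 0.51 and 0.34. The receptors differed by 0.12 for Nr1h3 (95% interval -0.18 to 0.43) and 0.01 for Nr1h2 (-0.16 to 0.19).

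LPS set directly against IL-4 tests whether the responses differ. With LPS 6 members were lower and 1 was higher, where 25.9% of all rows were called lower, 21.0% higher and 46.9% either way. The log2 fold change of LPS against IL-4 was -1.15 ± 0.16 for Acsl3, -0.89 ± 0.27 for Abcg1, -0.75 ± 0.07 for Fasn, -0.63 ± 0.07 for Scd2, -0.52 ± 0.07 for Srebf1 and -0.39 ± 0.11 for Abca1 (SE; adjusted p between 6.79e-05 for Fasn and 0.0251 for Abcg1). Mylip was the member that was higher with LPS, by 0.47 ± 0.12 (adjusted p = 0.0138): its LPS arrays were 9.50 or above and its IL-4 arrays 9.35 or below. The Nr1h2 row was also higher with LPS than with IL-4, by 0.27 ± 0.08 (adjusted p = 0.0212). Pltp (-0.35, 95% interval -0.81 to 0.11) and Nr1h3 (0.16, 95% interval -0.15 to 0.47) did not pass. With LPS, 7 of 10 fibroblast markers (median -0.65) and 7 of 13 microglia markers (median -0.40) were lower than with IL-4 too, and their part in the members' values was not tested. LPS and IL-4 did not overlap in 7 of 9, against 59.9% of all rows, and the count of 7 called fell to 4 without IL-4 replicate 2.

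By condition, then, Fasn, Scd2 and Acsl3 ran LPS below PBS and IL-4, with PBS and IL-4 not told apart by the test. Srebf1 had the same order, and Abcg1 ran LPS, IL-4, PBS with the last pair not told apart. Abca1 ran LPS below IL-4, with PBS between them and told apart from neither, and Mylip ran IL-4 below LPS, again with PBS between. For Nr1h3 and Pltp no neighbours in the order passed the test. This order rests on the fit without pairing: with the replicate number as a block, LPS and PBS differed for Abca1 and Nr1h3, and with the block within the 6 LPS and PBS arrays for Pltp as well (adjusted p = 0.00516).

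The members followed replicate 3 in different ways. Replicate 3 minus the mean of replicates 1 and 2 was -0.68 with LPS and -0.88 with PBS for Abcg1, and -0.42 with LPS and -0.34 with PBS for Nr1h3. It was 0.62 with LPS and 0.58 with PBS for Pltp, and 0.44 with LPS and 0.43 with PBS for Acsl3. Those 4 genes thus shifted alike in both conditions, while Mylip shifted by -0.38 with LPS and 0.29 with PBS. On the IL-4 arrays no member shifted by more than 0.08 either way. The cilia, oligodendrocyte, astrocyte and microglia markers were raised on the same 2 arrays, and their part in these shifts was not tested.

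**Figure D3:**
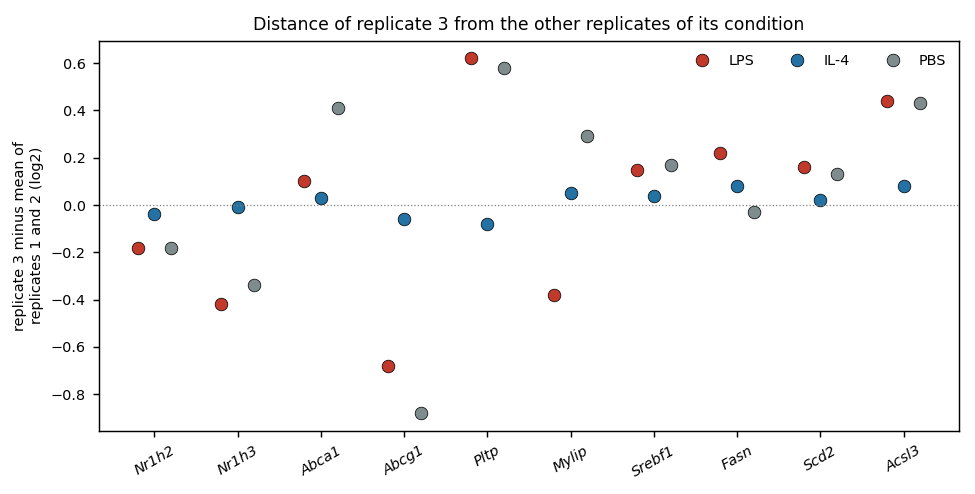
Replicate 3 minus the mean of replicates 1 and 2 of the same condition (y axis, log2 units) for the 10 genes (x axis), with 1 point per condition. The LPS and PBS points of Abcg1 (-0.68 and -0.88), Pltp (0.62 and 0.58) and Acsl3 (0.44 and 0.43) lie far from 0, and the IL-4 points lie between -0.08 and 0.08.

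Without those 2 arrays, 7 arrays remained, and all 9 annotated members passed the test of LPS against PBS, 7 lower and 2 higher, where 28.3% of all rows were lower, 19.1% higher and 47.4% either. Abcg1 (-1.14), Acsl3 (-1.03), Fasn (-0.65), Scd2 (-0.51) and Srebf1 (-0.25) were still lower with LPS. Pltp (-0.31, adjusted p = 0.0018) and Abca1 (-0.16, adjusted p = 0.0314) joined them, and Mylip (0.42, adjusted p = 0.00169) and Nr1h3 (0.32, adjusted p = 0.00339) were higher. Of the single arrays, leaving out LPS replicate 3 alone took the count to 8.

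For IL-4 against PBS the 7 arrays gave 6 calls, 5 higher and 1 lower, where 16.6% of all rows were higher, 13.5% lower and 30.1% either. Srebf1 (0.32, adjusted p = 0.00355), Acsl3 (0.27, adjusted p = 0.0449), Abca1 (0.26, adjusted p = 0.00486), Pltp (0.24, adjusted p = 0.00773) and Scd2 (0.17, adjusted p = 0.0377) were higher with IL-4, and Abcg1 (-0.48, adjusted p = 0.00454) was lower. In this set all 14 cilia markers were also higher with IL-4 (median 1.18), as were 7 of 10 astrocyte, 5 of 10 oligodendrocyte and 6 of 13 microglia markers. Of the fibroblast markers, 7 of 10 were higher with IL-4 in this set (median 0.48) and on all 9 arrays (median 0.43). Their part in the 6 calls was not tested. LPS against IL-4 gave 9 calls of 9 on these arrays, 7 lower and 2 higher, where 32.3% of all rows were lower, 29.8% higher and 62.1% either.

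The receptors act with RXR partners on DNA and with coregulators. Of 14 such genes, 9 were lower with LPS than with PBS, 3 were higher and 2 did not pass (median -0.32), where 22.4% of all rows were lower, 15.4% higher and 37.8% either way. With IL-4, 1 was lower. Rxra, the main retinoid X receptor of macrophages, read 7.82, 7.99 and 7.60 with LPS, 9.42, 9.33 and 9.39 with IL-4, and 9.82, 9.87 and 9.49 with PBS. Rxra fell by 1.93 log2 units with LPS (SE 0.12, adjusted p = 5.18e-06), and with IL-4 the difference was -0.34 (adjusted p = 0.158). The coactivator Ppargc1a fell by 1.89 with LPS, Tbl1xr1, a subunit of the corepressor complexes, fell by 0.93, and Rxrg, a retinoid X receptor of muscle and brain, was higher by 0.91.

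Some enzymes that make or break down the ligands also changed. Ch25h, which makes an oxysterol from cholesterol, read 12.09, 12.05 and 12.26 with LPS, 9.43, 9.60 and 9.48 with IL-4, and 8.12, 8.04 and 8.51 with PBS. It was higher with LPS by 3.91 ± 0.12 (adjusted p = 8.31e-08) and with IL-4 by 1.28 (adjusted p = 7.46e-04). Cyp27a1, which makes another oxysterol, read 7.65, 7.54 and 7.48 with LPS, 7.88, 7.76 and 7.82 with IL-4, and 8.65, 8.61 and 9.10 with PBS. Its log2 fold change was -1.23 with LPS and -0.97 with IL-4 (adjusted p = 0.00353 for IL-4). Cyp7b1, which clears hydroxylated sterols, was higher with LPS by 1.41. In all, 2 of these 5 enzymes were higher, 1 was lower and 2 did not pass with LPS. Of all rows, 15.4% were higher, 22.4% lower and 37.8% either way, and 5 genes are few to set beside these shares.

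Among 20 other genes known as LXR targets, 7 were lower with LPS, 1 was higher and 12 did not pass (median -0.20). The share called was close to the 37.8% of all rows called either way, of which 22.4% were lower and 15.4% higher. The lower ones included the cholesterol exit gene Npc1 (-0.82), the desaturase Fads1 (-0.60), the elongase Elovl5 (-0.47), the phospholipid remodelling enzyme Lpcat3 (-0.41) and Scd1 (-0.39). Mertk, a receptor for dead cells, was the higher one (0.82, adjusted p = 4.69e-04). Apoe, the main lipid carrier of the brain, gave -0.18 (adjusted p = 0.254). With IL-4, 1 of the 20 was lower, Apoc4 (-0.41, adjusted p = 0.0439). For LPS against PBS on the 7 arrays, 9 of the 20 were lower and 2 higher, where 28.3% of all rows were lower and 19.1% higher. Apoe gave -0.20 there (adjusted p = 0.02).

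Of 13 fatty acid synthesis genes, which again include Scd1, 4 were lower with LPS and 1 was higher, where 22.4% of all rows were lower and 15.4% higher. The share called was again close to the 37.8% of all rows called either way. The lower ones were Scd1, Thrsp (-0.77), a lipogenic regulator, Gpam (-0.62), the first enzyme of triglyceride synthesis, and Acss2 (-0.21), which makes acetyl-CoA. Me1, which supplies NADPH, was higher with IL-4 than with PBS (0.39, adjusted p = 0.0056). Not every other acyl-CoA synthetase of the list had a named row. Of those that did, Acsl5 was higher with LPS by 0.93 ± 0.15 (adjusted p = 0.00123) and Acsl4 by 0.67 ± 0.19 (adjusted p = 0.0212). Acsl6 gave -0.14 (adjusted p = 0.63), and -0.18 on the 7 arrays (adjusted p = 0.0386). Of 12 other ABCA and ABCG transporters, 6 were lower with LPS and 0 were higher, where 22.4% of all rows were lower and 15.4% higher. The lower ones included Abcg4 (-0.86), Abca9 (-0.78), Abcg3 (-0.53) and Abca3 (-0.43). Of 14 genes of the sterol synthesis pathway run by SREBP2, 3 were lower, a share close to the 22.4% of all rows (Dhcr7 by 1.19, Sqle by 0.77 and Mbtps1 by 0.42). None was higher, where 15.4% of all rows were, and Insig1 gave -0.44 (adjusted p = 0.193). On the 7 arrays the counts were larger: 9 of these 14, 6 of the 13 fatty acid synthesis genes and 8 of the 12 transporters were lower. None of the 3 lists had a higher gene there, where 28.3% of all rows were lower and 19.1% higher. Insig1 gave -0.49 on the 7 arrays (adjusted p = 4.23e-04). With quantile normalization or array medians subtracted, no gene of these lists was called in the opposite direction for LPS against PBS, and the medians of the lists kept their sign there except that of the 5 ligand enzymes (0.02, or -0.03 with quantile normalization).

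**Figure D4:**
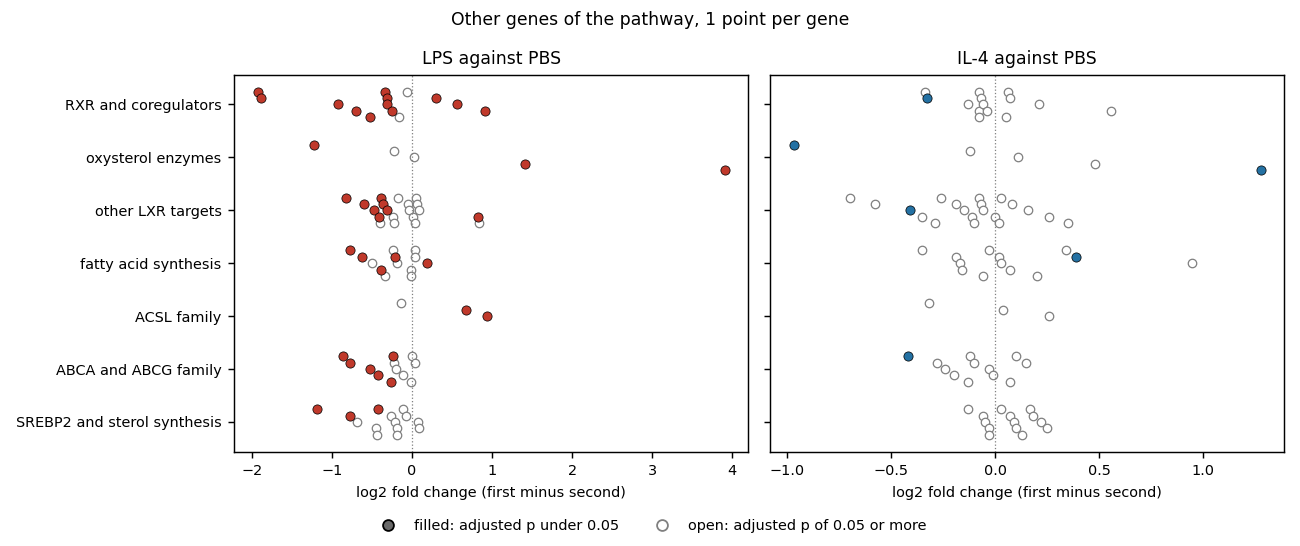
Log2 fold change (x axis) of other genes of the pathway, 1 point per gene, grouped by list (y axis), for LPS against PBS and IL-4 against PBS; filled points have an adjusted p under 0.05. With LPS the filled points of the ABCA and ABCG family lie between -0.86 and 0, those of the ACSL family at 0.67 and 0.93, and Ch25h stands at 3.91.

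The rows most like each member over the 9 arrays were found by Pearson correlation, given here as a description, since the 9 points share 3 conditions and the replicate 3 arrays. For Abcg1 they were Rcor1, Pparg and Sh3bgrl3 (r = 0.994 each), Pparg being a lipid-sensing nuclear receptor. For Acsl3 they were Guf1 (0.996), Zbtb25 (0.995) and Anapc1 (0.995), for Scd2 Rpp14 (0.998), Adal (0.997) and Clec16a (0.997), and for Fasn Rcc2 (0.994), Etfrf1 (0.993) and Vdac1 (0.993). Srebf1 was most like Tmeff2 (0.993), Arhgef25 (0.992) and Gucy1a2 (0.991), and Abca1 was most like Lrrc18 (0.992), Zkscan7 (0.989) and Rab11fip2 (0.985). Pltp was most like Slc22a17 (0.993), Mt1 (0.992) and Stpg1 (0.991). Nr1h3 was nearest to Blvrb (0.983), Zfp568 (0.980) and Ciapin1 (0.980), and the Nr1h2 row to Prss45, Dok7 and Zfp628 (0.985 each). Mylip had the loosest neighbours, Saa1 (0.953), Ankle2 (0.940) and Krtap16-3 (0.938).

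Among the members themselves, the synthesis genes ran together: r was 0.98 for Fasn with Scd2, 0.98 for Acsl3 with Scd2, 0.92 for Srebf1 with Scd2 and 0.91 for Srebf1 with Fasn. The Nr1h2 row ran against Acsl3 (-0.97). For Abcg1 and Pltp, both of lipid export, r was -0.00 over the 9 arrays. Both read lower with LPS than with PBS in every same-numbered pair, and replicate 3 was the lowest Abcg1 array and the highest Pltp array of LPS and of PBS.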

How the data were processed

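Gene expression was measured on 9 Affymetrix Mouse Exon 1.0 ST arrays, 3 each of LPS, IL-4 and PBS. The deposited values are log2 intensities that the authors made from the scans by RMA with the affy package (versions not given in the sources used here), 1 row per gene; they ranged between 2.05 and 13.06, no value was missing, and array medians lay between 7.20 and 7.39. RMA equalizes arrays, so a change shared by most genes may be hidden. The medians of the row values still differed by condition. They were 7.20 to 7.26 with LPS, 7.32 to 7.37 with PBS and 7.37 to 7.39 with IL-4. The number of arrays limits the precision. Rows were named through the platform annotation: 18786 with 1 symbol, 6 with several and 2420 with none.

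Group means were fitted over all 9 arrays with limma 3.58.1 (lmFit, eBayes, 6 residual degrees of freedom) in R 4.3.3 on all 21212 rows, with Benjamini-Hochberg adjustment and a call at adjusted p under 0.05. The fit was tested on simulated data with independent noise on every array. That test does not cover deviations shared between arrays, which these data have. Promoter windows came from RefSeq (GRCm38.p6); gene coordinates and motifs use that build only.

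The members and gene lists were chosen with earlier results of these data known. Named are all members, Rxra, Apoe, Scd1, Lpcat3, Ch25h and Insig1, with Il6 and Chil3 for the stimuli. The 3 rows most correlated with each member are named too. So are up to 4 called genes of each pathway list with the largest change against PBS. Larger called changes of LPS against IL-4, such as Scd4 (-1.45) and Arg2 (1.52), were not used to choose the list genes. Acsl6, Tyrobp, C1qb, C1qc and Gpr34 were named after their values were seen. List genes without a named row were not analysed here.

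Same-numbered LPS and PBS arrays deviated together from their condition means over all rows (r = 0.578, 0.651 and 0.800 for replicates 1, 2 and 3). Their numbers were taken as pairs. Replicates 1 and 2 also correlated across numbers, at 0.542 for LPS 1 with PBS 2 and 0.605 for LPS 2 with PBS 1. Deviations from a mean of 3 arrays cancel out, and replicate 3 stood apart in both conditions. The values therefore match replicate 3 only and cannot show which of the other LPS and PBS arrays belong together. IL-4 numbers paired with neither (r between -0.255 and 0.339). The study's methods name Student's t-test, run as an alternative. The others were fits within 6 arrays, a trended robust prior, array weights, quantile normalization, subtracted medians, a filter on dim rows, the replicate block, and arrays left out.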

Additional observations from a re-analysis of the deposited data

How the results depend on the processing

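The 9 annotated members stand for the counts of members here. For LPS against PBS, 5 members were called. The methods' t-test gave 3, array weights 9, the 7 arrays 9, the replicate block within the 6 arrays of the comparison (chosen after seeing the data) 8, and leaving out single arrays 4 to 8. The replicate block over 9 arrays gave 7, adding Nr1h3 and Abca1. For IL-4 against PBS, 0 were called, against 7 with array weights, 1 with the replicate block (Srebf1, 0.26, adjusted p = 0.0365), 6 on the 7 arrays and 0 to 2 with single arrays left out. That block call rests on IL-4 replicate numbers, which paired with neither LPS nor PBS. For LPS against IL-4, 7 were called, and 4 to 8 with single arrays left out.

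Over all rows, LPS against PBS called 8014, the methods' t-test 5303, and 6734 to 8815 with single arrays left out. IL-4 against PBS called 1146, the t-test 716, array weights 8295, the 7 arrays 6389, the replicate block within 6 arrays 287, and 466 to 2033 with single arrays left out; it kept 2033 without PBS replicate 3 and 1735 without LPS replicate 3. LPS against IL-4 called 9953, and 7605 to 10964 with single arrays left out. The causes of these differences were not tested.

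Subtracting array medians moved the median of all rows by over 0.1, to 0.12 for LPS against PBS, and 5872 of 9195 calls were then higher, against 3266 of 8014. For IL-4 against PBS 459 of 913 were higher, against 711 of 1146, and for LPS against IL-4 9567 of 13264, against 4458 of 9953. A pair of small differences of IL-4 against PBS changed sign without being called. Nr1h2 (0.01) was -0.07 with array weights, -0.03 with medians subtracted, -0.04 on the 7 arrays, and -0.04 to 0.06 with single arrays left out (-0.02 without IL-4 replicate 1, -0.04 without PBS replicate 3). Pltp (0.05) was -0.06 to 0.24 with single arrays left out (-0.06 and -0.04 without PBS replicates 1 and 2).

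Of the calls on single members, Abcg1 for LPS against PBS was lost by the t-test (adjusted p = 0.124) and nowhere else. For LPS against IL-4, Abca1, Abcg1, Mylip and the Nr1h2 row each lost the call in some settings, always keeping the direction, and Srebf1, Fasn, Scd2 and Acsl3 in none of those run. The block over 9 arrays used the replicate numbers of all 3 conditions, including those of IL-4, which paired with neither LPS nor PBS. For LPS with PBS the values matched replicate 3 but could not match the others. In that comparison the block over 9 arrays changed no member's call apart from those of Nr1h3 and Abca1. The block within 6 arrays also added Pltp (adjusted p = 0.00516).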
